A study of Mus musculus with 2 samples.

Results

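The clusters described here are the stretches of RNA named only as region C2 in the list of sites recovered with epitope-tagged FAM120A from mouse embryonic stem cells. Every comma-separated name of such a cluster begins with regionC2. The rule kept 4897 of the 11670 clusters listed for the tagged library, or 42%, and a further 817 clusters that join a C2 name with another class were left out. The study compared 2 stem cell lines grown with leukemia inhibitory factor, 1 library each. The tagged line, TT-FHFam120a, carried a lentiviral Fam120a gene with FLAG and HA epitopes under a doxycycline switch, and the control line, TT-Fam120a, carried the same gene without epitopes. Both lines received doxycycline at 2.5 µg/mL, so both were induced to make the protein from a pSLIK lentiviral cassette, and any endogenous FAM120A carries no epitope. Whether each line was 1 clone is not given in the sources used here. With 1 library per group there is no replicate check, and every difference below compares these 2 libraries and not the conditions. Intervals are at 95% and cover counting error alone: reads may be copies of 1 molecule, and clusters close together may share reads.

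FAM120A binds RNA and has been found together with Argonaute 2, the protein that carries microRNAs to their target messenger RNAs. In iCLIP, ultraviolet light fixes the protein to the RNA it touches, the RNA is trimmed and reverse transcribed, and the enzyme tends to stop at the residue left on the crosslinked base, so that read ends pile up beside the contact. Reads spread over a stretch of transcript therefore report many contacts or stops, and reads at 1 position report 1 repeated stop or repeated copies of 1 molecule. The FLAG and HA immunoprecipitations of the untagged line give the background of such a library, which usually holds abundant structural and mitochondrial RNAs. Clusters are given by position on mm9, the build named in the submitters' processing notes, and a genome sequence or gene annotation of that build was not used here.

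C2 clusters held more reads than region B clusters, the other large class of the tagged list. The median was 11 tagged reads per C2 cluster, with quartiles of 7 and 18, against a median of 6 with quartiles of 5 and 11 over 5730 region B clusters. The range in C2 ran from 5 reads, the lowest count listed, to 4343. Only 413 C2 clusters (8.43%) held 5 reads, 1133 (23.1%, interval 22 to 24.3) held at least 20 and 105 (2.14%) held at least 100. In region B 780 clusters (13.6%, interval 12.7 to 14.5) reached 20 reads. The counts of a cluster are the authors' listed reads, and total library depth is unknown.

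C2 clusters were wider than region B clusters. The commonest width was 26 nt, found for 3392 clusters, of which 3387 had their highest position, or the first of several tied ones, at the same listed offset of 12 in the cluster; whether that offset counts from the 5′ end or the lower coordinate was not settled. The other 1505 clusters (30.7%, interval 29.5 to 32) were wider, with a median of 48 nt, quartiles of 43 and 56 nt and a maximum of 211 nt. None of the 3122 clusters with a single C2 name was wider than 26 nt. Clusters with 2 names had a median width of 43 nt, those with 3 names 57 nt and those with 4 names 73 nt. A wide C2 cluster is thus listed as several named windows in 1 stretch. Among clusters of 20 or more reads, 558 of 1133 C2 clusters (49.2%) were wider than 26 nt, against 4 of 780 in region B (0.513%). The class letters are not explained in the sources used here. Whether the rule that assigns them sets this difference in width was not tested.

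At 20 or more reads, C2 clusters had a smaller share of their reads at 1 position than region B clusters. The share is the count at the highest position over all listed reads, which may include reads outside the cluster. At chr5:130321872-130321897, of 26 nt, 979 reads were listed with 36 at the highest position, more than its positions can hold. A low share therefore does not by itself show reads spread along the cluster. At 20 or more reads, a median of 32.7% of the reads (interval 31.8 to 33.3) lay at the highest position, with quartiles of 22.7% and 45.1%. The median in region B was 91.3% (89.6 to 92.6). At most 50% of the reads lay at the highest position in 946 C2 clusters (83.5%, interval 81.2 to 85.5) and in 118 region B clusters (15.1%, 12.8 to 17.8). Over 75% lay there in 22 C2 clusters (1.94%) and in 518 region B clusters (66.4%). Several positions tied for the highest count in 120 of these 1133 C2 clusters (10.6%) and in 15 of the 780 region B clusters (1.92%). Inside C2 the median share was 40% at 5 to 8 reads, 35.3% at 9 to 19, 32.3% at 20 to 49, 35.2% at 50 to 99 and 32.5% at 100 or more. At 5 to 8 reads region B clusters had the same median of 40%, and at 9 to 19 reads they had 63.6%, so the medians of the classes parted only from 9 reads upward.

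**Figure D1:**
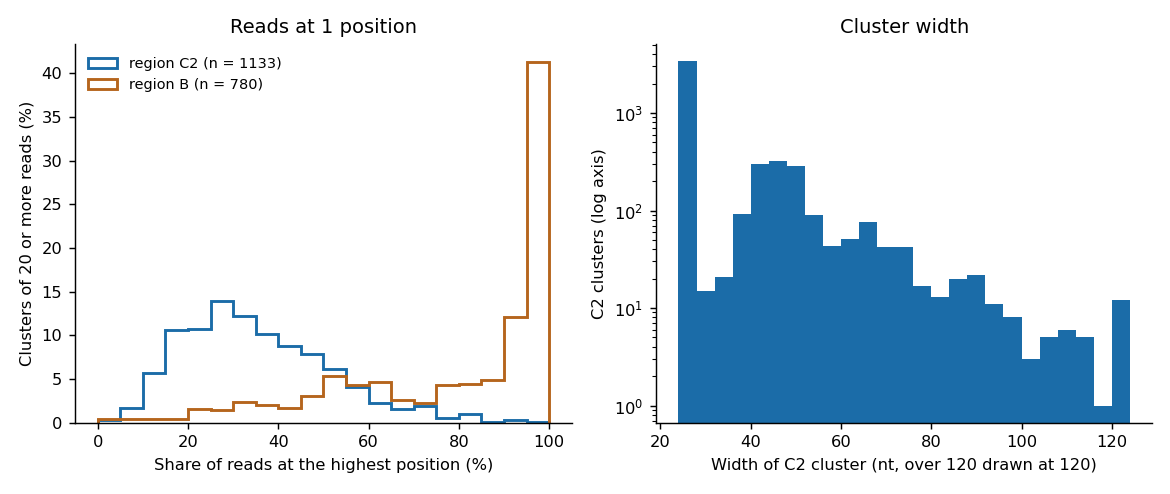
Left, the share of a cluster's tagged reads at its highest position (x axis, percent) for clusters of 20 or more reads, as a percent of the clusters of each class (y axis), with 1133 C2 clusters in blue and 780 region B clusters in orange. Right, the number of C2 clusters (log axis) by width in nt. C2 clusters centre near the median of 32.7% while region B clusters pile up above 90%, and widths over 120 nt, up to 211 nt, are drawn at 120.

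Reads of the untagged library were recovered from the listed ratio and p, and are given unscaled unless stated; 1 untagged read corresponds to 1.501 reads after the scaling that the listed values imply. The untagged library had 0 reads at 3081 C2 clusters, or 62.9% (61.6 to 64.3), where 69.9% of all tagged-list clusters had 0. This share is largely set by the listing rule, because no C2 cluster under 9 reads was listed with any untagged read. In bands of equal read number the untagged library was empty more often at C2 clusters than at region B clusters. At 9 to 19 reads it had 0 reads at 57.4% of 2203 C2 clusters (55.3 to 59.4) and at 39.9% of 1182 region B clusters (37.2 to 42.8). At 20 to 49 reads these shares were 28.9% of 848 (25.9 to 32) and 8.3% of 506 (6.2 to 11), and at 50 to 99 reads 5.56% of 180 (3.05 to 9.92) and 0.578% of 173 (0.102 to 3.2). The intervals of the classes did not overlap at 9 to 49 reads and overlapped narrowly at 50 to 99. They treat clusters as independent, though clusters close together may share reads, so they are no test between the classes. Over all tagged-list clusters the share with 0 untagged reads was 16.1% at 20 or more reads and 2.1% at 50 or more.

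The listed log2 ratio of tagged to untagged reads, each plus 1, showed the same order. Over the 1133 C2 clusters of 20 or more reads its median was 3.42 (3.32 to 3.5), with quartiles of 2.87 and 4.39, and over the 780 region B clusters it was 1.19 (1.14 to 1.25). By band, the C2 and region B medians were 3.28 and 1.42 at 20 to 49 reads, and 3.8 and 0.92 at 50 to 99 reads. At 100 or more reads they were 3.82 (3.18 to 4.14) over 105 C2 clusters and 0.56 (0.51 to 0.65) over 101 region B clusters. Over these bands the C2 median rose up to 50 to 99 reads and was level above that, and the region B median fell. The lower quartile of C2 fell from 3.23 at 50 to 99 reads to 0.62 at 100 or more. In both classes lower ratios can be listed only at higher counts.

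Another measure set tagged reads against the depth-scaled untagged reads, with at least 3 unscaled reads assumed where fewer were found, so that a cluster needs 37 tagged reads to reach 8-fold. Of the C2 clusters of 20 or more reads, 360 (31.8%, interval 29.1 to 34.5) were at least 8-fold over the untagged library, against 21.3% of all tagged-list clusters of that size. Without the depth scaling of the untagged reads the C2 share was 68.8% (66.1 to 71.5). The assumed 3 reads then weigh less, so fewer than 37 tagged reads reach 8-fold, and clusters barred before can pass. How much of the rise comes from this was not tested, and the share over all tagged-list clusters was not computed this way. At 50 or more reads, where the threshold is always within reach, 216 of 285 C2 clusters passed (75.8%, interval 70.5 to 80.4), against 43.3% of all tagged-list clusters and 21 of 274 in region B (7.66%, 5.07 to 11.4). A log2 ratio of 3 or more was listed for 771 of 1133 C2 clusters (68%) at 20 or more reads, against 46.3% of all tagged-list clusters, and for 210 of 285 C2 clusters (73.7%) at 50 or more reads, against 42%. With 0 untagged reads there were 256 of 1133 (22.6%, against 16.1% of the list), 11 of 285 (3.86%, against 2.1%) and, at 100 or more reads, 1 of 105 (0.952%, against 0.483%). The 285 C2 clusters are part of the 571 behind the percentage for the whole list.

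**Figure D2:**
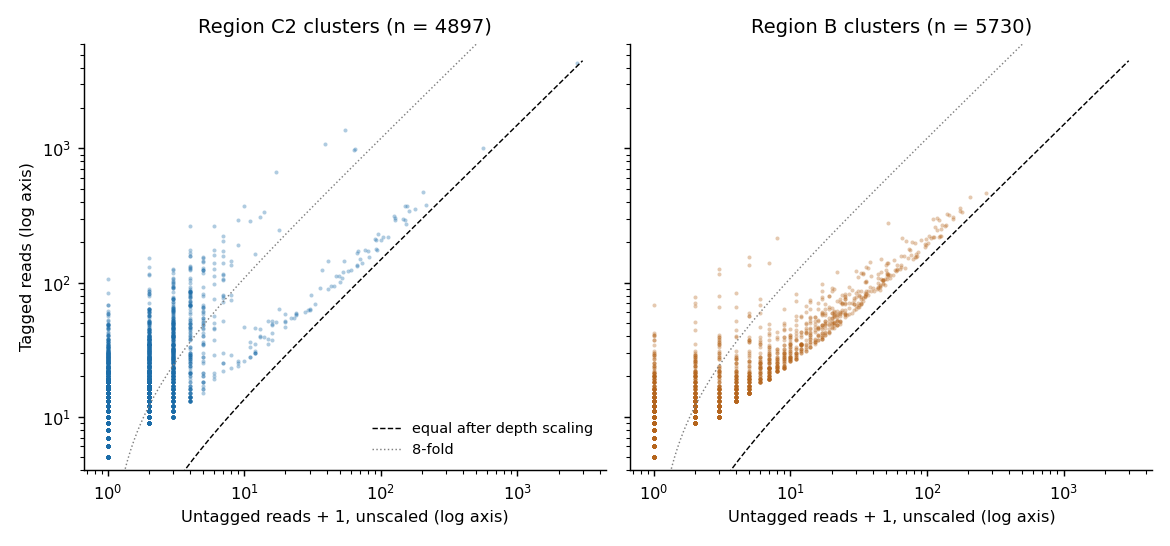
Tagged reads (y axis, log) against unscaled untagged reads plus 1 (x axis, log) for the 4897 C2 clusters, left, and the 5730 region B clusters, right; each point is 1 cluster, the dashed curve marks equal reads after depth scaling and the dotted curve marks 8-fold. C2 clusters above 100 reads fall into an upper cloud and a band just above the dashed curve, and most region B clusters of that size lie in the band.

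The best covered C2 clusters fell into 2 groups by ratio with almost nothing between them. Of the 105 with at least 100 reads, 64 had a log2 ratio of 3 or more, in 34 loci, and 39 had a ratio under 1, in 18 loci. Among all tagged-list clusters of that size 34.3% had a ratio of 3 or more and 58.9% a ratio under 1. Ratios in the upper group started at 3.18 and those in the lower group ended at 0.85. The 2 clusters between lay on chromosome 7, minus strand, chr7:118219591-118219655, with 124 tagged against 36 untagged reads (log2 ratio 1.18), and on the mitochondrial chromosome at positions 1765 to 1804, with 144 against 40 (1.25). The listing rule shapes the lower group, because clusters with still lower ratios were not listed.

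The groups overlapped in the shape of the cluster. Clusters of the upper group had a median of 35.1% of their reads at the highest position (quartiles 24.5% and 45.8%), and those of the lower group 28.7% (19.6% and 39.3%). Wider than 26 nt were 36 of 64 clusters above (56.2%) and 18 of 39 below (46.2%). The median read count was lower above, 141 against 206.

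They differed in their surroundings. C2 clusters of the same strand were joined into loci wherever the gap was no more than 1000 nt. All 64 clusters of the upper group lay in loci of at least 3 C2 clusters. Most C2 clusters of any size did so too. Of all 4897, 702 (14.3%) were alone in their locus, and 308 loci held 2. In the lower group 17 lay in loci of 1 or 2, and the other 22 came from only 3 loci, 1 on the mitochondrial chromosome and 2 on chromosome 17, which are described below and were picked out after their ratios were seen.

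The split by locus size was also present at 50 or more reads. C2 clusters alone in their locus had a median log2 ratio of 0.605 (0.48 to 0.71, 18 clusters), and 17 of the 18 were under 1 (94.4%, interval 74.2 to 99). In loci of 2 the median was 0.825 (0.62 to 2.41, 24 clusters), with 14 under 1. In loci of 3 to 9 it was 4 (3.75 to 4.12, 95 clusters) with 4 under 1, and in loci of 10 or more it was 3.92 (3.79 to 4.09, 148 clusters) with 22 under 1. Of all tagged-list clusters of 50 or more reads 41.7% had a ratio under 1. At least 8-fold were 92.6% (85.6 to 96.4) of the clusters in loci of 3 to 9 and 81.8% (74.8 to 87.1) of those in loci of 10 or more. The 3 loci named above are all the loci of 3 or more that held a cluster of 20 or more reads with a ratio under 1, and they held all 26 such clusters.

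The single cluster alone in its C2 locus with a high ratio had a neighbour of another class. It lay at chr7:29607039-29607157 on the plus strand, with 54 tagged against 2 untagged reads (log2 ratio 3.78), and a tagged-list cluster of another class began or ended 32 nt away. The remaining 17 had no tagged-list cluster of any class within 1000 nt on their strand, and all 17 had ratios under 1. An untagged-list cluster lay within 1000 nt of 6 of the 18. Region B clusters of 50 or more reads showed a like split. The 13 with a tagged-list neighbour within 1000 nt had a median log2 ratio of 4.27 (3.03 to 4.72) and 34.8% of reads at the highest position (21.6 to 57.1), and the 261 without one had medians of 0.77 (0.7 to 0.83) and 94.3% (91.2 to 96).

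Neighbours count here only if they are listed, and a C2 cluster with a ratio under 1 was listed only from 24 reads upward. Small neighbours of a low-ratio cluster would therefore be missing from the list, and the part of this in the split was not tested. At 20 or more reads clusters alone in their locus again had the lowest ratios, while those in loci of 2 lay nearer to those in larger loci. The median log2 ratio was 1.09 (0.85 to 2.17) over 65 clusters alone in their locus, 2.89 (2.41 to 3.17) over 77 in loci of 2, 3.5 (3.37 to 3.61) over 461 in loci of 3 to 9 and 3.51 (3.42 to 3.58) over 530 in larger loci. Ratios under 1 were found for 71 of these C2 clusters (6.27%, interval 5 to 7.83), against 18.6% of all tagged-list clusters of 20 or more reads and 298 of 780 in region B (38.2%). Of the 71, 45 lay in loci of 1 or 2 and 26 in the 3 loci.

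**Figure D3:**
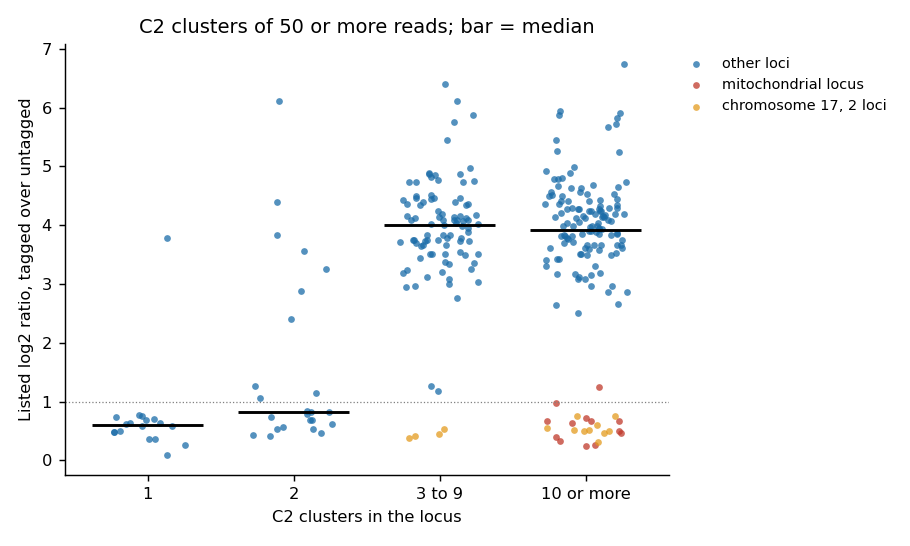
Listed log2 ratio of tagged over untagged reads (y axis) for the 285 C2 clusters of 50 or more reads, by the number of C2 clusters in their locus (x axis); each point is 1 cluster, spread sideways for sight, black bars are medians, and the mitochondrial locus and the 2 chromosome 17 loci are coloured. Single clusters sit below the dotted line at 1 except 1, and clusters in loci of 3 or more sit near 4 except for the coloured loci and 2 clusters just above the line.

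The 3 loci with low ratios lay on 2 chromosomes. On the mitochondrial chromosome, which encodes ribosomal RNAs, transfer RNAs and messenger RNAs of the respiratory chain, positions 334 to 3564 of the plus strand held 20 C2 clusters, whose median was 149.5 tagged reads and whose median log2 ratio was 0.7. On chromosome 17, plus strand, chr17:39979930-39980868 held 10 with a median of 158.5 reads and a ratio between 0.32 and 0.75, and chr17:39982115-39983347 held 5 with a median of 132 reads and ratios from 0.38 to 1.81. No cluster of the chromosome 17 loci was without untagged reads, which does not set them apart at their read numbers. Of all tagged-list clusters, 16.1% had 0 untagged reads at 20 or more reads and 0.483% at 100 or more. Among the 88 loci of 10 or more C2 clusters, only the mitochondrial locus and the larger chromosome 17 locus had a median ratio under 1, and the other 86 had medians of 2.46 or more. These medians take in clusters of few reads, which can only be listed with a high ratio, so the listing rule in part sets them. Counting only clusters of 20 or more reads, 80 of those 86 loci held 501, with ratios from 1.58 to 6.75 and a median of 3.58. Among single clusters, positions 488 to 513 of the mitochondrial plus strand held 272 tagged against 151 untagged reads (log2 ratio 0.26), and chr17:39980554-39980579 held 175 against 93 (0.32).

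Along the mitochondrial chromosome the plus-strand clusters were divided at position 2203, the end of the last one with a log2 ratio under 1, so that their ratios on either side are a description that this choice in part fixes. The 16 plus-strand C2 clusters that end by position 2203 held a median of 212.5 tagged reads (23 to 380) and had log2 ratios from 0.24 to 1.68 (median 0.68). The 21 plus-strand C2 clusters beyond it held a median of 14 reads (6 to 64) and had ratios from 1.11 to 3.46 (median 1.91). The 5 on the minus strand, at positions 13659 to 13904, held 6 to 13 reads with ratios of 2 to 3.46. A cluster of few reads can only be listed with a high ratio, so the order of these 3 groups follows in part from their read numbers. None of the 42 mitochondrial C2 clusters was 8-fold over the untagged library, and 23 of them held 20 or more reads. Those under 37 reads, some of the 23 among them, could not reach 8-fold. Of all tagged-list clusters, 21.3% were 8-fold at 20 or more reads and 43.3% at 50 or more. C2 made up 42 of the 55 mitochondrial clusters of the tagged list (76.4%), and between 35% and 48.6% on the autosomes and chromosome X. Over those chromosomes the median log2 ratio of C2 clusters of 20 or more reads ran from 3.03 on chromosome 17 to 4.1 on chromosome 16, against 0.98 over the 23 mitochondrial clusters.

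C2 clusters lay in runs. Another C2 cluster lay within 50 nt on the same strand for 2838 of 4897 (58%, interval 56.6 to 59.3), within 10 nt for 1530 (31.2%) and within 1000 nt for 4195 (85.7%, 84.7 to 86.6). Among region B clusters, 9.35% (8.63 to 10.1) had another region B cluster within 50 nt and 41.4% within 1000 nt. The names themselves differ in spacing. Consecutive name numbers lay within 200 nt on 1 strand for 87.7% of C2 pairs and for 0 of 888 region B pairs. Whether the rule that assigns the class letters sets this difference between the classes was not tested. No C2 clusters overlapped or touched. Of 3337 adjacent C2 pairs within 1000 nt on either strand, 3333 shared the strand (99.9%), and 2459 of all C2 clusters (50.2%) lay on the plus strand. Joining C2 clusters at most 50 nt apart gave 3003 runs, of which 2059 were single clusters and 944 held several, with a median length of 102 nt and quartiles of 72 and 157.2 nt. Runs of 5 or more numbered 123 and held 831 clusters.

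Clusters almost end to end had similar counts. Where the gap was 1 to 10 nt, the larger of 2 neighbouring counts was a median of 1.3 times the smaller (quartiles 1.11 and 1.86, 844 pairs). At gaps of 11 to 50 nt this was 1.64 (1050 pairs), at 201 to 1000 nt 1.62 (610 pairs) and beyond 1000 nt 1.61 (1520 pairs). The median was thus lower for the closest pairs and about the same at every other distance. Reads that reach over a short gap could be counted in both clusters, and their part in this was not tested. The clearest case lay on chromosome 5, plus strand. The cluster at chr5:130321796-130321859 held 995 tagged reads with 604 at its highest position, and the next cluster, 12 nt downstream, chr5:130321872-130321897, held 979 reads with only 36 at its highest position (3.68%). Counts were therefore not added over clusters.

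The C2 clusters fell into 1563 loci. Of these, 702 (44.9%) were single clusters, and 88 held at least 10 clusters each and together 1384, or 28.3% of all C2 clusters. These 88 loci had a median length of 1498 nt (600 to 6017), a median of 9.81 C2 clusters per 1000 nt (3.42 to 20) and a median of 36.4% of their length covered by C2 clusters (11.3% to 71%). The median log2 ratio of a locus, over its clusters of every size, ranged from 0.52 to 4.01, with quartiles of 2.88 and 3.37. Clusters of few reads, which can only be listed with a high ratio, raise these medians. In 86 of the 88, clusters of another class also lay within 1000 nt on the same strand, and in 1, the mitochondrial locus, so did clusters of the untagged list. Within a locus the cluster with the most reads held a median of 3.17 times the locus median (1.22 to 20.5), and at least 3 times in 49 loci. From the 5′ to the 3′ end of the 88 loci, cut into 5 equal parts, this top cluster fell in 21, 23, 16, 12 and 16 loci, and the median reads per cluster were 16, 16, 17, 13 and 14. No end of the loci thus stood out by this count.

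**Figure D4:**
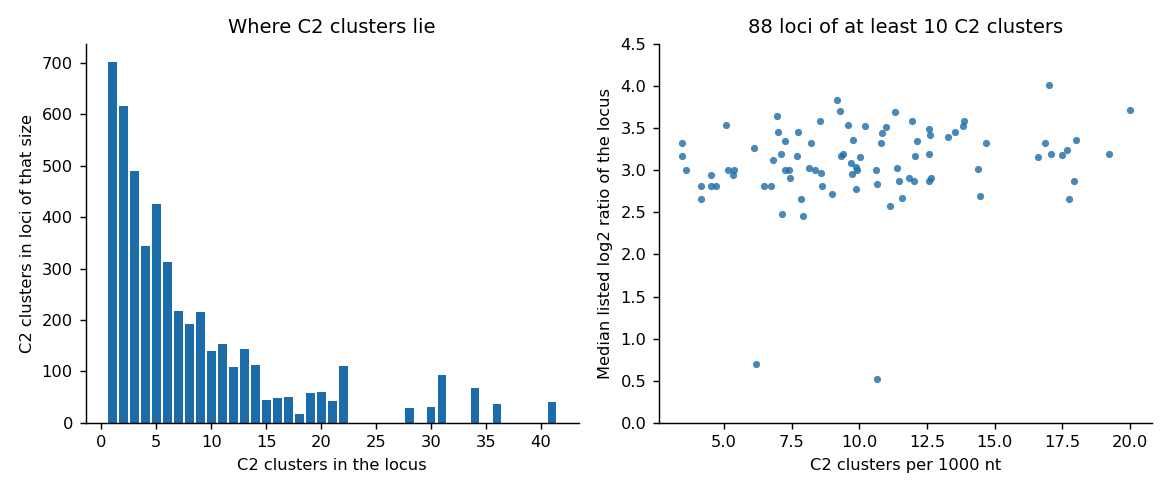
Left, the number of C2 clusters (y axis) that lie in loci of each size (x axis, C2 clusters per locus). Right, the median listed log2 ratio (y axis) against C2 clusters per 1000 nt (x axis) for the 88 loci of at least 10 C2 clusters, where 86 points lie at 2.46 or above and the mitochondrial and a chromosome 17 locus lie at 0.7 and 0.52. The medians include clusters of few reads, which can only be listed with a high ratio.

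The locus with the most C2 clusters had 1 dominant site in a long field of small ones. It lay on the minus strand at chr11:95818628-95824644 and held 41 C2 clusters of 5 to 266 tagged reads over 6017 nt, of which they covered 27%. The untagged library had 0 reads at 13 of them, where it had 0 at 62.9% of all C2 clusters and 69.9% of all tagged-list clusters. The dominant cluster, chr11:95822963-95823011, had 266 tagged against 5 untagged reads; their ratio after depth scaling was 35.4 (15 to 110.1), and the next largest held 53. On the other strand of that chromosome, chr11:87863174-87865097 held 34 clusters of 10 to 293 reads that covered 71% of 1924 nt, the highest covered share of the 88 loci. Its largest, chr11:87864691-87864775, had 293 against 8 reads, a ratio of 24.4 (12.2 to 57.1). Of these 34 clusters, 29 formed the longest C2 run, chr11:87863543-87865097, which spanned 1555 nt. The next longest runs held 17 clusters in 986 nt, at chr11:95823659-95824644, and 11 in 978 nt, at chr19:5799734-5800711, both on the minus strand. On the plus strand of chromosome 5, chr5:32793574-32794382 held 16 in 809 nt, of which 11 had 0 untagged reads, a share near those of all C2 and all tagged-list clusters.

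The other 8 of the 10 loci with the most C2 clusters ranged from flat fields to fields with 1 dominant site. On chromosome 19, the minus-strand locus chr19:5796050-5801605 held 36 clusters named by 86 windows, with 5 to 82 reads and a locus median log2 ratio of 2.81, and the plus-strand locus chr19:44377929-44380845 held 31 of 5 to 57 reads with a median of 3. On chromosome 1, chr1:133827830-133832511 on the plus strand held 34 clusters, 21 of them with 0 untagged reads, and its largest had 144 against 4 reads, a ratio of 24 (9.17 to 89.2). No dominant cluster was present on chromosome 16, plus strand, chr16:44159767-44162358, where 31 clusters held 6 to 44 reads and 20 had 0 untagged reads. The shares with 0 untagged reads in these chromosome 1 and 16 loci were near the 62.9% of all C2 clusters and 69.9% of all tagged-list clusters. Likewise flat was chr5:92481451-92483780 on the minus strand, with 28 clusters of 7 to 44 reads. By contrast chr5:136384374-136386864, also on the minus strand, held 30 clusters whose largest had 262 against 3 reads, a ratio of 58.2 (19.7 to 284), followed by one of 113. On chromosome 9, plus strand, chr9:72595120-72597588 held 31 clusters of 9 to 85 reads, each with another C2 cluster within 50 nt. On chromosome 18, minus strand, chr18:35062611-35064674 held 22 clusters, of which the largest had 375 reads and the next 82. It tied with 4 other loci of 22 C2 clusters for the last of these 10 places and is named because its largest cluster held the most reads of the 5.

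**Figure D5:**
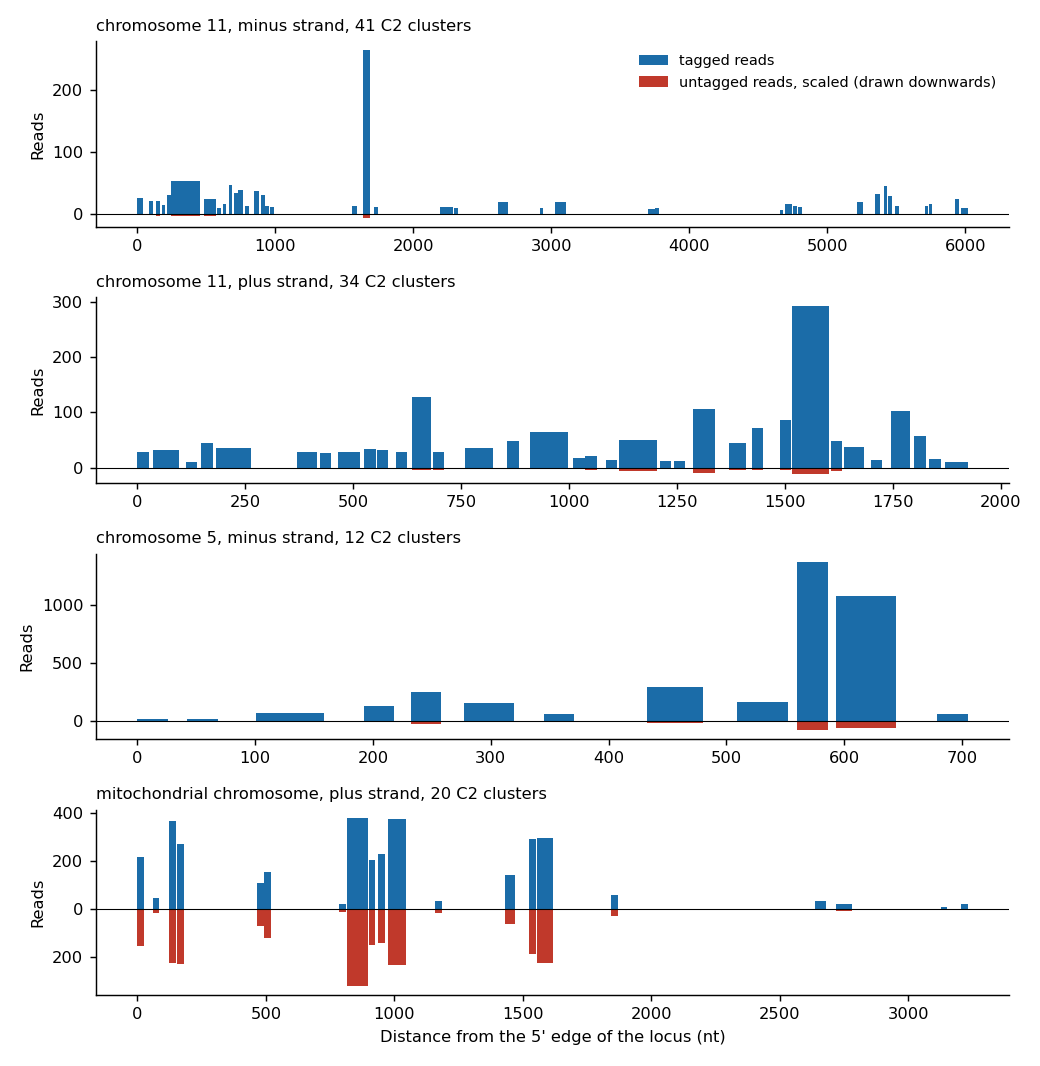
Reads of each C2 cluster along 4 loci, by distance from the 5′ edge of the locus in nt (x axis); bars span the width of the cluster, blue bars give tagged reads upward and red bars depth-scaled untagged reads downward, each panel with its own scale. The first 3 loci have untagged bars that are short beside the tagged ones, and the mitochondrial locus has tall bars in both directions over its first part.

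The 10 densest loci were mostly short and included the plus-strand locus of 34 clusters on chromosome 11 given above. Ranked by C2 clusters per 1000 nt among loci of at least 10, the first was chr1:180258804-180259403 on the minus strand, with 12 clusters in 600 nt (20 per 1000 nt), 12 to 63 reads and a median log2 ratio of 3.72. The second, chr2:103605992-103606720 on the minus strand, held 14 in 729 nt with 6 to 71 reads. On the minus strand of chromosome 11, chr11:51414039-51414926 held 16 in 888 nt with 5 to 105 reads, and its largest had 6 untagged reads, a ratio of 11.7 (5.18 to 32.5). On the plus strand of chromosome 3 there were 2 such loci. In chr3:87718832-87719947, 20 clusters held a median of 15 reads and the largest held 167 against 3, a ratio of 37.1 (12.5 to 181.7). In chr3:34550460-34551259, 14 clusters of 9 to 114 reads covered 70.6% of 800 nt as a single run, the fifth longest, and the untagged library had reads at all 14, yet the median log2 ratio was 3.18.

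The dense locus with the most reads lay on the minus strand at chr5:143664829-143665533. Its 12 clusters held 14 to 1368 tagged reads with a median of 142, and its median log2 ratio of 4.01 was the highest of the 88 loci. Its 2 largest clusters lay 7 nt apart. The one at chr5:143664948-143664973 had 1368 tagged against 54 untagged reads, a ratio of 16.9 (12.9 to 22.6), and the one at chr5:143664890-143664940 had 1075 against 38, a ratio of 18.8 (13.6 to 26.8). None of the 12 clusters was without untagged reads, which is common at such counts. Of all tagged-list clusters, 16.1% had 0 untagged reads at 20 or more reads and 0.483% at 100 or more. The remaining dense loci were chr5:143733923-143734598 on the plus strand, with 12 clusters of 9 to 47 reads, chr4:134876509-134877210 on the minus strand, with 12 of 8 to 68, and chr14:27475446-27476097 on the plus strand, with 11 of 8 to 93.

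The 10 C2 clusters with the most reads belonged to both groups of ratios. The largest count of all, 4343 tagged reads at chr3:5860685-5860710 on the plus strand, stood against 2712 untagged reads, so that the scaled ratio was 1.07 (1.02 to 1.12), and the nearest C2 cluster lay over 1000 nt away. The same was true of chr8:3754530-3754571 on the minus strand, with 1012 against 561 reads (ratio 1.2, interval 1.08 to 1.33), and of chr9:78023133-78023176 on the minus strand, with 475 against 204 (1.55, 1.31 to 1.84). Positions 1150 to 1230 of the mitochondrial plus strand held 380 against 214 reads (1.18, 0.998 to 1.41). All 6 others lay in loci of 7 or more C2 clusters. Besides the chromosome 5 clusters already given, these were chr11:69730471-69730496 on the minus strand, with 671 against 16 reads (27.9, 17.1 to 49.2), and chr18:35063485-35063525 on the minus strand, with 375 against 9 (27.8, 14.5 to 61.2). The chromosome 5 plus-strand cluster of 995 reads had 64 untagged reads, a ratio of 10.4 (8.04 to 13.6).

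C2 clusters without a single untagged read reached 107 tagged reads. That cluster, chr17:57160911-57160960 on the minus strand, was 23.8-fold higher when 3 unscaled untagged reads are assumed. The exact interval, from the 0 reads found, starts lower, at 19. A second cluster 15 nt from it, chr17:57160844-57160895, held 56 against 0. Next came chr11:69480863-69480888 on the minus strand with 84 reads, 18.7-fold on the same assumption (exact interval from 14.8). Then came chr14:49808211-49808241 and chr19:10979690-10979730, both on the plus strand with 68 reads, 15.1-fold (exact interval from 12). A neighbouring pair on chromosome 6, minus strand, chr6:144948170-144948195 and chr6:144948200-144948225, held 59 and 61 reads against 0 in a locus of 11 C2 clusters. These 10 clusters with 0 untagged reads and the most tagged reads had their highest position at 7.14% to 39.7% of the reads. The 3 remaining ones, on chromosomes 11, 2 and 15, held 58, 58 and 53 reads.

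The widest C2 clusters were long fields of moderate counts. The 2 widest, chr11:95824192-95824402, made of 11 named windows, and chr1:155303339-155303549, made of 9, both on the minus strand, spanned 211 nt with 53 and 38 tagged reads against 3 and 2 untagged reads. The ratio was 11.8 (3.82 to 58.9) for the first and 12.7 (3.27 to 108.3) for the second. The next, chr8:122333774-122333945 on the minus strand, spanned 172 nt with 13 against 1 reads. In the chromosome 19 loci given above, chr19:5800549-5800711 spanned 163 nt with 48 against 4 reads and chr19:44379081-44379223 spanned 143 nt with 37 against 2.

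The untagged list held few C2 clusters, 109 of 1134 (9.61%, interval 8.03 to 11.5), and their ratios were small. These clusters were listed as enriched in the untagged over the tagged library. They held a median of 142 untagged reads, with quartiles of 42 and 2182, and at 20 or more reads a median log2 ratio of untagged to tagged reads of 0.5 (0.44 to 0.59), where 86 of 95 (90.5%, interval 83 to 94.9) were under 1. In shape they were close to C2 clusters of the tagged list. At 20 or more reads a median of 30% of the reads (24.5 to 33.8) lay at the highest position and, over all 109, 35 (32.1%, 24.1 to 41.4) were wider than 26 nt. A smaller share, 33% (24.9 to 42.3), had another C2 cluster of the same list within 50 nt, in a list with fewer clusters. A tagged-list C2 cluster was found no more than 1000 nt away on the same strand for 34 of the 109 (31.2%). Counting untagged-list clusters of every class, 15 of the 1563 tagged-list C2 loci (0.96%) had one that close.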

How the data were processed

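iCLIP libraries of 1 tagged and 1 untagged line were given by the authors as lists of read clusters enriched over the other library, on mm9 per the submitters' processing notes; no source used here names the aligner, the cluster caller or the duplicate treatment. The deposited lists have no header. Read counts at the highest position were deposited as whole numbers; the 3 joined values were read, from the values, as own reads, log2 ratio and one-sided binomial p, with listed p up to 0.0494. For each cluster the whole number of other-library reads that gave back ratio (tolerance 0.006) and p was taken, found for 100% of clusters; 4 C2 clusters had several. These numbers were rounded multiples of a factor between 1.5001 and 1.5017, and 1.5009 was used as the depth scaling. On data simulated for C2 counts, 4114 of 4115 values were recovered, and 300 of 300 planted loci. Ratio and p were simulated with the formula used for recovery, so this checks the arithmetic and not how the values were read. The planted loci lay far apart with inner gaps that the joining rule accepts, so their recovery was fixed in advance.

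Positions were made 1-based. Intervals are Wilson (shares), binomial order statistics (medians) and exact binomial (ratios). No test between groups was made. The loci and clusters named were those with the most clusters, the most per 1000 nt, the most reads, the widest, the longest runs and the extreme ratios; the C2 clusters and these rules were chosen with earlier results of these data known. Python 3.11.15, pandas 2.3.3 and scipy 1.17.1 were used.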

Additional observations from a re-analysis of the deposited data

How the results depend on the processing

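Of 78 recomputed values, 55 stayed within their limit, which was a factor of 1.5 for counts and the 95% interval for shares and medians. Another 23 went past that limit. A change of direction was found for 0 values, but this outcome was fixed in advance. Counts, shares and read numbers cannot be negative, and the lowest log2 ratio of any listed tagged cluster was 0.09. No value had a test. No paired analysis was possible because only 1 library stands in each group. With any C2 name the wide share was 36% and the share with a C2 neighbour within 50 nt 63.9%. With listed p of at most 0.01 median reads were 14 and the wide share 35.6%. A minimum of 50 reads gave a median log2 ratio of 3.81, 75.8% at least 8-fold and 34.4% of reads at the highest position. A minimum of 10 reads left 2951 clusters in 1006 loci, 52 of them with 10 or more, with 42.1% at 0 untagged reads, 41.6% wide and 60.2% with a neighbour within 50 nt; fewer clusters entered by construction. Unscaled untagged reads gave a median log2 ratio of 3.95 and 68.8% at least 8-fold, and allowing 1 untagged read raised 62.9% to 84.5%. The neighbour share was 31.2% at 10 nt, 66.7% at 100 nt and 73.5% with neighbours of any class. The highest cluster of each run gave 3003 clusters, 65.4% with 0 untagged reads. Chosen after seeing the data, leaving out single-cluster loci gave median reads of 12 and 60.4% with 0 untagged reads, and leaving out the 3 low-ratio loci moved no value beyond its limit. Otherwise the cause was not tested. Depth limits clusters under 37 reads, which cannot reach 8-fold with the depth scaling. Without the scaling fewer reads are needed, which enters the 68.8%.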

Other observations

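The numbers in the cluster names carry structure. Across region B, C1 and C2 no number was used more than once among 16165 names, which ran up to 46690. Of 3513 pairs of consecutive numbers among names of C2 clusters, 3081 (87.7%) lay within 200 nt on the same strand, while only 5 of 428 pairs differing by 2 did. Of 888 consecutive pairs among names of region B clusters, 0 lay that close. Joined this way, the 7587 C2 names formed 4506 series, of which 2037 held at least 2 names and together 67.5% of all names. The longest series had 14 names in 8 clusters. This is a description of the names; their meaning is not explained in the sources used here.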
